A study of Mus musculus with 8 samples.

Results

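The estrogen-related receptors, the PGC1 coactivators and the fatty acid receptor Ppara were followed in the pharyngeal mesoderm and hearts of mouse embryos that lacked Isl1. The 6 genes were Esrra, Esrrb, Esrrg, Ppargc1a, Ppargc1b and Ppara, out of 20701 gene symbols in the deposited table, and they were taken by symbol, with the transcript that held the most reads used for each. They were selected on their measured counts in knockout against wild-type embryos, so those values are given as a description and without a test.

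Every library was made from 1 embryo at E8.75 (6 somites), of strain C57BL/6. There were 4 Isl1-/- embryos and 4 wild-type embryos. Isl1 encodes a LIM-homeodomain factor of cardiac progenitors, and the comparison addressed which genes depend on it. Its RNA was at 9.72 to 26.9 counts per 1000000 reads (CPM, scaled by TMM) in wild-type embryos and at 1.78 to 2.40 CPM in Isl1-/- embryos, without overlap. The libraries held 18916452 to 26153039 counted reads, fewest in Isl1-/- embryos 3 and 4. The RNA type was given as polyA RNA for 7 of the 8 libraries and as total RNA for Isl1-/- embryo 2, which was treated like the others. That embryo held the lowest Esrrg, Ppargc1a and Ppara values and the highest Esrra and Ppargc1b values of all 8 embryos. It also held the lowest sum of cardiomyocyte markers (1850 CPM) and the highest sums of yolk sac endoderm (6533 CPM) and primitive erythroid markers (3129 CPM). The part of the RNA type or of the tissue make-up in its values was not tested. All 16 cardiomyocyte markers examined were detected. Yolk sac endoderm markers varied from 406 to 6533 CPM in sum over the embryos and overlapped between genotypes.

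Estrogen-related receptors (ERRs) are orphan nuclear receptors that bind DNA without a known natural hormone. Their activity depends on coactivators of the PGC1 family, which bring histone acetyltransferases and the Mediator complex to the receptor. Together with PPARα they switch on genes for mitochondrial respiration and fatty acid use, and in the maturing heart ERRα and ERRγ maintain oxidative metabolism. ERRβ is best known from placenta, inner ear and pluripotent cells.

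Promoter sequences were read to show what lies in front of these genes. RefSeq windows of 300 bases around annotated starts (GRCm38.p6) were found for 5 of the 6 genes, with 4 windows for Esrrg, 2 for Esrrb and 1 each for Esrra, Ppargc1a and Ppara. Ppargc1b was not among them. The 4 motifs searched on both strands were the extended ERR element TCAAGGTCA, the half-site AAGGTCA that lies within it, the Isl1 core motif CTAATG and the MEF2 motif, all chosen after the expression values were known. Of all 32851 windows, 0.423% held the ERR element, 4.72% the half-site, 7.36% the Isl1 core motif and 0.557% the MEF2 motif. Among the 9 windows of the 5 genes there was 1 match, a MEF2 motif in the first Esrrg window, beginning 22 bases before the annotated start. Its 250 upstream bases (chr1:187608756-187609005, plus strand, GRCm38.p6) are shown because Esrrg is the receptor on which the results turn, with the motif in capitals.
Esrrg: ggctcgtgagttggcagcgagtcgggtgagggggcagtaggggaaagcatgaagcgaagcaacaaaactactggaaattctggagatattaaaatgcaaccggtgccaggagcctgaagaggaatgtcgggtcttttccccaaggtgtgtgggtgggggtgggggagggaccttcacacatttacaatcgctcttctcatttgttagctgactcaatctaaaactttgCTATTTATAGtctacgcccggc
Which of the 4 Esrrg starts was in use was not measured. A motif match describes the letters in a window and does not show that a factor binds there.

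Esrrg, which encodes ERRγ, differed most between the genotypes among the 3 ERRs. The gene spans chromosome 1, 189432670 to 190038764, plus strand, in mm9, and its counts came from the exons of NM_011935. The wild-type embryos 1 to 4 held 431, 347, 478 and 470 reads, or 18.0, 15.4, 20.1 and 17.9 CPM. The Isl1-/- embryos 1 to 4 held 192, 142, 149 and 160 reads, or 7.42, 5.89, 7.79 and 7.83 CPM. Every Isl1-/- embryo lay below every wild-type embryo, with a wide gap between the groups. The mean was 17.9 ± 1.94 CPM in wild-type and 7.23 ± 0.916 CPM in Isl1-/- embryos (SD, n = 4 each), so 40.5% of the wild-type mean was present. The log2 fold change was -1.30 (SE 0.13) in the edgeR model. The second deposited Esrrg transcript, NM_001243792, held nearly the same reads, 343 to 475 in wild-type and 142 to 192 in Isl1-/- embryos, and since it shares exons it is no second measurement.

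**Figure D1:**
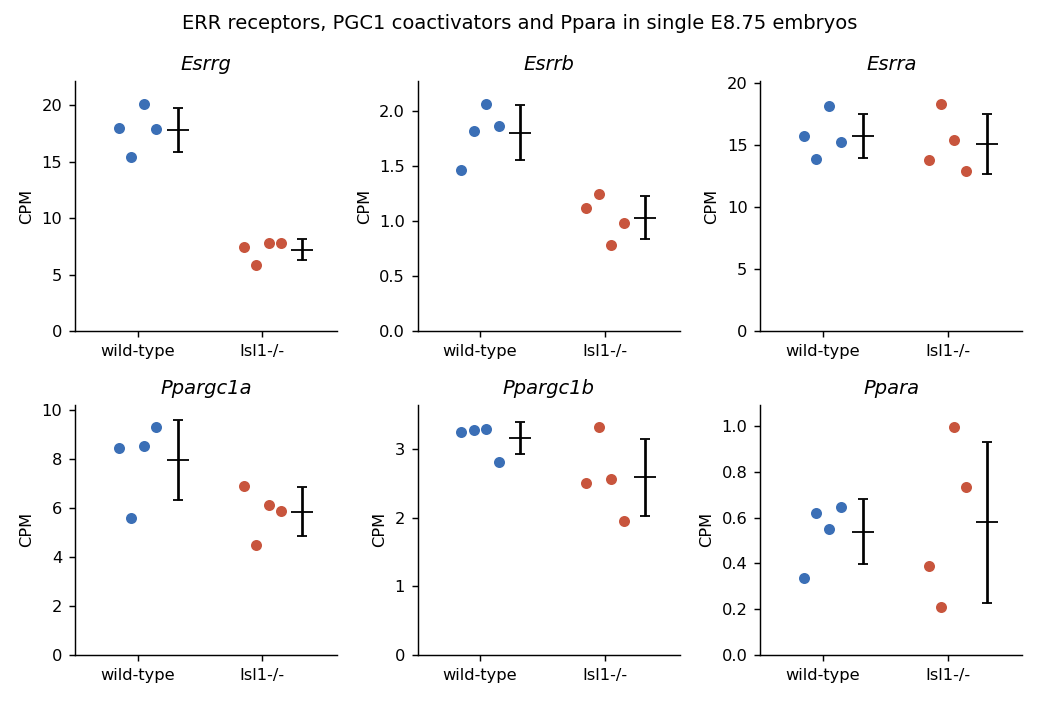
TMM-scaled CPM of the 6 genes in 4 wild-type (blue) and 4 Isl1-/- (red) embryos, each point 1 embryo, with the mean and SD beside the points and each vertical axis starting at 0. The groups are separate for Esrrg (15.4 to 20.1 against 5.89 to 7.83 CPM) and Esrrb, and they overlap for the other 4 genes.

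Esrra, which encodes ERRα, differed between the genotypes by less than the spread between embryos. It is encoded on chromosome 19, 6985467 to 6996303, minus strand (mm9), and was read from NM_007953. The wild-type embryos 1 to 4 had 15.7, 13.9, 18.1 and 15.2 CPM, from 313 to 430 reads. The Isl1-/- embryos 1 to 4 had 13.8, 18.3, 15.4 and 12.9 CPM, from 263 to 442 reads. Isl1-/- embryo 2 held the highest value of all 8 embryos and Isl1-/- embryo 4 the lowest, so the Isl1-/- range enclosed the wild-type range. The log2 fold change was -0.06 (SE 0.13), with means of 15.7 ± 1.77 CPM in wild-type and 15.1 ± 2.39 CPM in Isl1-/- embryos (SD, n = 4 each). In the annotation, 73 exonic bases of Esrra were shared with Trmt112 on the opposite strand, and because reads of both strands were counted, their source in this stretch could not be told apart.

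Esrrb, which encodes ERRβ, was rare and was lower in Isl1-/- embryos. The gene lies on chromosome 12, 87702067 to 87862578, plus strand (mm9), and was read from NM_001159500. The wild-type embryos 1 to 4 had 1.46, 1.82, 2.07 and 1.86 CPM, from 35, 41, 49 and 49 reads. The Isl1-/- embryos 1 to 4 had 1.12, 1.24, 0.784 and 0.979 CPM, from 29, 30, 15 and 20 reads. The groups did not overlap, although Isl1-/- embryo 2 and wild-type embryo 1 lay near each other. The Isl1-/- mean was 57.3% of the wild-type mean, and the log2 fold change was -0.79 (SE 0.22). The spread within groups, a coefficient of variation of 14.0% in wild-type and 19.1% in Isl1-/- embryos, was about what counting error alone gives at these read numbers (15.2% and 20.6%). For Esrrg the corresponding spreads were 10.9% and 12.7%, against counting errors of 4.81% and 7.89%.

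The groups thus did not overlap for 2 of the 6 genes, both lower in Isl1-/- embryos. Among all 14075 genes fitted, 6.33% were lower without overlap and 3.96% were higher without overlap. Since this contrast was used to select the 6 genes, nothing is read from that share.

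The make-up of ERR RNA was separate between the genotypes, whereas its sum was lower on average in Isl1-/- embryos and overlapped. Levels were compared per transcript length, as the deposited RPKM (reads per kilobase of transcript and 1000000 counted reads). In the wild-type embryos 1 to 4, Esrrg took 31.6%, 30.5%, 30.7% and 31.8% of the summed RPKM of the 3 receptors. In the Isl1-/- embryos 1 to 4 it took 17.9%, 11.6%, 17.3% and 19.8%. The wild-type embryos were nearly equal, while the Isl1-/- embryos were lower throughout and varied more. Esrra took 64.1% to 65.4% in wild-type and 77.1% to 85.4% in Isl1-/- embryos, and the ratio of Esrra to Esrrg RPKM was 2.09 ± 0.0564 against 5.08 ± 1.56 (SD, n = 4 each). Isl1-/- embryo 2, the library with the differing RNA label, had the highest ratio, 7.36, and the other 3 Isl1-/- embryos were at 3.89 to 4.67. The summed ERR RPKM was 6.30 ± 0.746 in wild-type and 5.05 ± 0.504 in Isl1-/- embryos (SD, n = 4 each), 80.1% of the wild-type mean. Its ranges were 5.44 to 7.25 in wild-type and 4.55 to 5.71 in Isl1-/- embryos. They overlapped only through Isl1-/- embryo 2 (5.71) and wild-type embryo 2 (5.44). Esrra itself was at 4.10 ± 0.495 RPKM in wild-type and 4.07 ± 0.595 RPKM in Isl1-/- embryos.

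**Figure D2:**
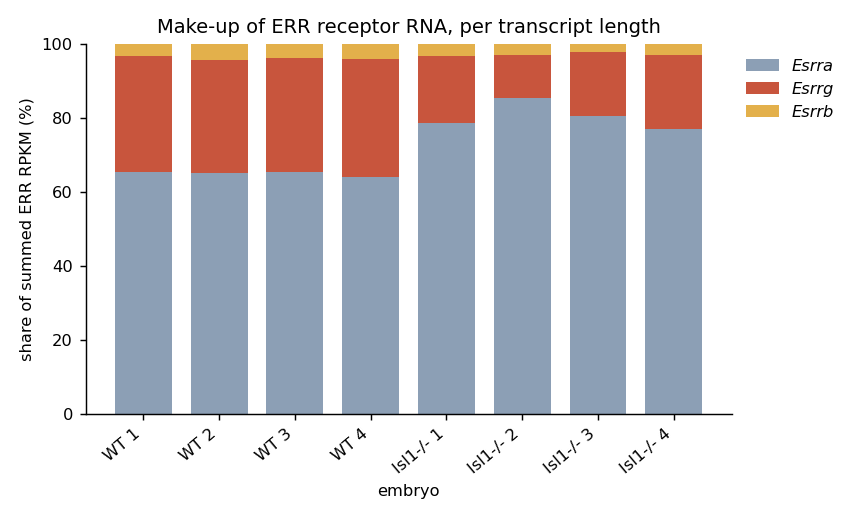
Share of each ERR gene in the summed RPKM of Esrra, Esrrb and Esrrg (vertical axis, percent) for each of the 8 embryos. The Esrrg part takes 30.5% to 31.8% in wild-type embryos and 11.6% to 19.8% in Isl1-/- embryos, and Esrra fills most of the remainder.

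Ppargc1a encodes PGC1α, the inducible coactivator that raises mitochondrial gene expression through ERRs and PPARs. It lies on chromosome 5, 51845488 to 51958964, minus strand (mm9), and was read from NM_008904. The wild-type embryos 1 to 4 had 8.43, 5.59, 8.51 and 9.28 CPM, from 126 to 244 reads. The Isl1-/- embryos 1 to 4 had 6.88, 4.48, 6.12 and 5.87 CPM, from 108 to 178 reads. The second embryo was the lowest of both groups, and wild-type embryo 2 lay inside the Isl1-/- range, so the groups overlapped. The log2 fold change was -0.45 (SE 0.19), with means of 7.95 ± 1.62 CPM in wild-type and 5.84 ± 1.003 CPM in Isl1-/- embryos (SD, n = 4 each).

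Ppargc1b encodes PGC1β, a close relative of PGC1α that supports basal mitochondrial gene expression. It was read from NM_133249. The wild-type embryos 1 to 4 had 3.26, 3.28, 3.29 and 2.81 CPM, from 74 to 78 reads. The Isl1-/- embryos 1 to 4 had 2.51, 3.32, 2.56 and 1.96 CPM, from 40 to 80 reads. Isl1-/- embryo 2 was the highest of all 8 and the other 3 Isl1-/- embryos were the lowest. This gave a log2 fold change of -0.28 (SE 0.19), which was -0.17 without Isl1-/- embryo 4 and -0.42 without Isl1-/- embryo 2. The ratio of Ppargc1a to Ppargc1b RPKM overlapped between genotypes, at 0.962 to 1.86 in wild-type and 0.762 to 1.69 in Isl1-/- embryos.

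Ppara encodes PPARα, the receptor that senses fatty acids and drives their oxidation, chiefly in liver and adult heart. It lies on chromosome 15, 85565413 to 85633249, plus strand (mm9), and was read from NM_001113418. Wild-type embryos 1 to 4 held 8, 14, 13 and 17 reads, and Isl1-/- embryos 1 to 4 held 10, 5, 19 and 15 reads. In CPM these were 0.334 to 0.646 in wild-type and 0.207 to 0.993 in Isl1-/- embryos. The groups overlapped fully. The coefficient of variation was 26.4% in wild-type and 60.6% in Isl1-/- embryos, beside counting errors of 27.7% and 28.6%. A log2 fold change of 0.07 with an SE of 0.46 could not resolve a difference of moderate size. Its sign depended on single embryos, with -0.30 without Isl1-/- embryo 3 and 0.37 without Isl1-/- embryo 2.

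In order of level per length, wild-type embryos held Esrra first (3.54 to 4.74 RPKM), then Esrrg (1.66 to 2.23 RPKM), Ppargc1a (0.493 to 0.858 RPKM), Ppargc1b (0.461 to 0.528 RPKM), Esrrb (0.195 to 0.281 RPKM) and Ppara (0.0266 to 0.0535 RPKM). Only the neighbours Ppargc1a and Ppargc1b overlapped. The order was the same in Isl1-/- embryos, with Esrra at 3.51 to 4.88 RPKM, Esrrg at 0.662 to 0.903 RPKM and Ppargc1a at 0.413 to 0.652 RPKM. There Esrrg lay just above Ppargc1a, whereas the gap was wide in wild-type embryos. Ppargc1b (0.327 to 0.541 RPKM) again overlapped with Ppargc1a, and Esrrb (0.110 to 0.172 RPKM) and Ppara (0.0171 to 0.0831 RPKM) came last.

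Markers of cardiomyocytes were lower in the same embryos. Of the 16 markers, 12 were lower past an FDR of 0.05 (edgeR quasi-likelihood test, Benjamini-Hochberg over all genes) and 0 were higher (0 at an unadjusted p under 0.05), while 0.867% of all genes fitted passed lower and 0.107% higher. The number past the threshold was 5 without wild-type embryo 1, 2 or 4 or Isl1-/- embryo 4, 7 without Isl1-/- embryo 1 and 16 without wild-type embryo 3. Their median log2 fold change was -0.98, against 0.01 over all genes. Wild-type embryos 1 to 4 held 5137, 5050, 3425 and 4730 CPM of them in sum, and Isl1-/- embryos 1 to 4 held 2451, 1850, 2794 and 2154 CPM, without overlap. The log2 fold change of Esrrg, -1.30 (SE 0.13), was beyond that of 15 of the 16 markers, the exception being Ttn at -1.38 (SE 0.28). The markers ran from -1.38 to -0.65. Nppa (-1.21, SE 0.48) and Myh7 (-1.18, SE 0.15) lay within 1 SE of the Esrrg value. Esrrg was selected on this contrast, so its place among the markers is a description.

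Esrrg was then set against this sum, embryo by embryo. Per 10000 CPM of markers, wild-type embryos 1 to 4 had 35.01, 30.5, 58.8 and 37.8 CPM of Esrrg. It was at 30.3, 31.8, 27.9 and 36.4 CPM in Isl1-/- embryos 1 to 4. The groups overlapped, and the high value was that of wild-type embryo 3, which had the fewest marker reads of its group and the most Esrrg. The log2 ratio of Isl1-/- to wild-type was -0.32, beside a within-group SD of 0.311, and it was -0.13 without wild-type embryo 3. In these bulk samples fewer cardiomyocytes and less Esrrg RNA per cardiomyocyte cannot be told apart, and the part of the markers in the Esrrg difference was not tested.

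**Figure D3:**
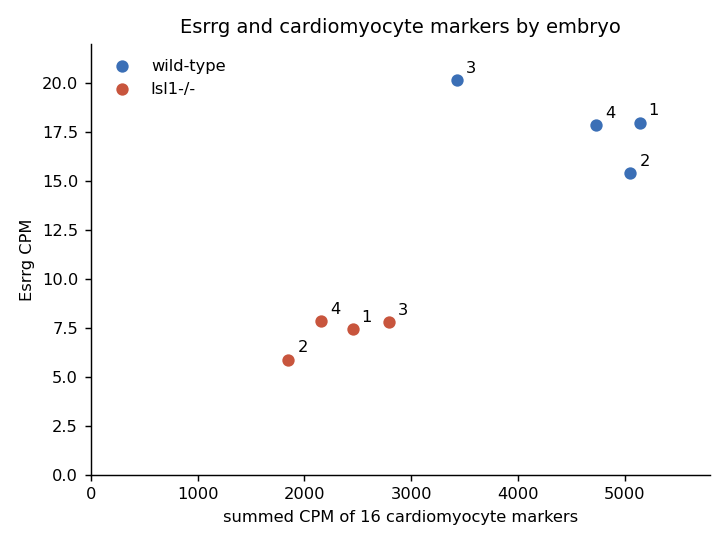
Esrrg CPM (vertical axis) against the summed CPM of 16 cardiomyocyte markers (horizontal axis) in 4 wild-type (blue) and 4 Isl1-/- (red) embryos, numbered as in the labels. Isl1-/- embryos are low on both axes (5.89 to 7.83 CPM of Esrrg), and wild-type embryo 3 stands apart with 20.1 CPM of Esrrg at 3425 CPM of markers.

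The genes whose pattern over the 8 embryos was most like that of Esrrg were sought among the other 14069 genes, by the root mean square distance between log2 CPM profiles that were each centred on their mean. The nearest was Adora1, the adenosine A1 receptor, at a distance of 0.105, followed by Neurl1b, a ubiquitin ligase, at 0.140. Alpk2, an alpha kinase, followed at 0.164, Slc8a1, the sodium-calcium exchanger of heart muscle, at 0.172 and Rassf5, a Ras effector, at 0.177. The median distance over all genes was 0.690. By the same measure Esrrb was at 0.397, Ppargc1a at 0.460, Ppargc1b at 0.588, Esrra at 0.661 and Ppara at 0.789. In Adora1 the levels were 8.07 to 9.85 CPM in wild-type and 3.11 to 4.18 CPM in Isl1-/- embryos. Likeness to Esrrg, whose groups are separate, fixed such a separation for these 5 genes, so it is no result of its own.

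Around the receptors, 8 lists of pathway genes were examined, 219 of whose 237 genes had enough reads to be fitted. Of these, 1 was lower past an FDR of 0.05 (0.457%, beside 0.867% of all genes) and 0 were higher (6 at an unadjusted p under 0.05, and 0 with DESeq2 or limma). At an unadjusted p under 0.05, 35 were lower (15.98%), beside 10.1% of all genes lower and 7.37% higher. The gene past the threshold was Prkaa2, which encodes the α2 catalytic subunit of AMPK, the energy sensor that phosphorylates PGC1α. Wild-type embryos 1 to 4 had 29.0, 27.4, 22.2 and 22.9 CPM of it, and Isl1-/- embryos 1 to 4 had 15.1, 15.6, 16.1 and 14.0 CPM, without overlap. This was a log2 fold change of -0.74 (SE 0.11, edgeR FDR 0.0113). Without Isl1-/- embryo 4 it was -0.70 with an edgeR FDR of 0.0582. Without wild-type embryo 3 the number of pathway genes past the threshold was 9, beside 490 of all 14179 genes fitted there (384 lower). With DESeq2 on all embryos it was 10, beside 699 of all 14075 genes (463 lower), and 7 pathway genes were in both sets. Those without wild-type embryo 3 were Prkaa2, 1 nuclear receptor, 1 gene of fatty acid use, 2 of the cycle, 1 of the respiratory chain and 4 of striated muscle energy, with Idh3a in both the cycle and the muscle list.

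The coregulators of ERRs and PGC1 had a median log2 fold change of 0.03 over 14 genes, and 0 passed the edgeR threshold (1 higher and 1 lower at an unadjusted p under 0.05, 1 with DESeq2, 0 with limma). Nrip1, a corepressor of ERRs also called RIP140, was at 60.8 ± 9.83 CPM in wild-type and 67.4 ± 5.39 CPM in Isl1-/- embryos (SD, n = 4 each). Pprc1, the third PGC1 relative, was at 194 ± 37.2 and 210 ± 20.5 CPM. Perm1, a muscle regulator downstream of PGC1 and ERRs, was at 1.83 ± 0.380 and 1.91 ± 0.305 CPM. None of these 3 was separated between the genotypes.

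Of the 22 mitochondrial biogenesis factors, Prkaa2 passed. At an unadjusted edgeR p under 0.05, 0 were higher and 4 lower (18.2%, beside 10.1% of all genes). Without overlap, 0 were higher and 5 lower (22.7%, beside 6.33% of all genes). Nrf1, a master activator of nuclear genes for respiration, was at 74.7 ± 2.39 CPM in wild-type and 72.9 ± 2.16 CPM in Isl1-/- embryos (SD, n = 4 each). Tfam, which packages and transcribes mitochondrial DNA, was at 131 ± 4.61 and 123 ± 1.42 CPM, with an edgeR FDR of 0.340 although the groups did not overlap. The median of the list was -0.05.

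The other 36 nuclear receptors fitted had a median log2 fold change of 0.06, and 0 passed with edgeR (1 higher and 1 lower at an unadjusted p under 0.05, 1 with DESeq2, 0 with limma). Rxra, the partner with which PPARs bind DNA, was at 65.9 ± 9.77 CPM in wild-type and 68.1 ± 3.59 CPM in Isl1-/- embryos (SD, n = 4 each). Ppard, the widely expressed PPAR, was at 16.9 ± 2.06 and 19.9 ± 2.50 CPM, a log2 fold change of 0.24 (SE 0.12, edgeR FDR 0.351). Nr2f2, the atrial receptor COUP-TFII, was at 91.5 ± 10.7 and 95.5 ± 22.4 CPM. Nr4a1, an orphan receptor induced by many stimuli, was singled out after its values were seen. It had the lowest log2 fold change of the list, -1.55 (SE 0.41, edgeR FDR 0.105, DESeq2 FDR 0.0373). Its wild-type spread was wide, at 22.6 ± 14.1 CPM.

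Genes of fatty acid uptake and oxidation had a median log2 fold change of -0.06 over 28 genes, and 0 passed with edgeR (2 higher and 3 lower at an unadjusted p under 0.05, 1 with DESeq2, 1 with limma). Cpt1b, the muscle enzyme that admits long-chain fatty acids to mitochondria, was at 17.2 ± 3.76 CPM in wild-type and 10.8 ± 1.93 CPM in Isl1-/- embryos (SD, n = 4 each), a log2 fold change of -0.67 (SE 0.19, edgeR FDR 0.122). Fabp3, the heart fatty acid carrier, was at 1.31 ± 0.0807 and 0.776 ± 0.0856 CPM, with no overlap and a log2 fold change of -0.74 (SE 0.21, edgeR FDR 0.118). Cpt1b was the gene past the threshold with DESeq2 (FDR 0.0193), and Fabp3 the one with limma (FDR 0.0336). Acadm, a β-oxidation enzyme and a classical ERRα target, was at 42.4 ± 4.58 and 39.9 ± 8.08 CPM and overlapped. Pdk4, which holds back glucose oxidation, was at 1.29 ± 0.203 and 0.931 ± 0.272 CPM and overlapped as well. Of the 14 peroxisomal and ketogenic PPARα targets fitted, 0 passed with edgeR (2 higher and 0 lower at an unadjusted p under 0.05, 0 with DESeq2 and 0 with limma), and their median log2 fold change was 0.09.

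The tricarboxylic acid cycle and the respiratory chain showed small differences that mostly pointed one way. In the cycle list 20 of 22 genes and in the respiratory list 67 of 70 genes had a log2 fold change below 0, beside 48.8% of all genes. The medians were -0.14 and -0.17. With edgeR 0 passed in either list, with limma 0 and 0, and with DESeq2 3 and 1, beside 699 of all 14075 genes. At an unadjusted edgeR p under 0.05, 0 were higher in both lists. Lower were 8 (36.4%) and 13 (18.6%), beside 10.1% of all genes. Genes of a list share their samples, so the count of directions is not a set of independent observations.

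Of the cycle enzymes, citrate synthase (Cs), its entry step, was at 398 ± 16.3 CPM in wild-type and 342 ± 23.0 CPM in Isl1-/- embryos (SD, n = 4 each), without overlap, a log2 fold change of -0.22 (SE 0.06, edgeR FDR 0.135). Idh3a, a catalytic subunit of isocitrate dehydrogenase and a known ERR target, had a log2 fold change of -0.33 (SE 0.08, edgeR FDR 0.0866). With DESeq2 the FDR was 0.0374 for Cs and 0.0129 for Idh3a. Cycs, somatic cytochrome c, had 8.97, 8.87, 7.50 and 9.31 CPM in the wild-type group (embryos 1 to 4), against 5.03, 6.05, 2.14 and 5.09 CPM in the Isl1-/- group. Its groups were separate, with Isl1-/- embryo 3 lowest, at a log2 fold change of -0.91 (SE 0.26, edgeR FDR 0.129, DESeq2 FDR 0.0227). Cycs has processed copies in the genome, and how reads shared with such copies were counted was not stated. Atp5b, the catalytic subunit of ATP synthase, was at 1502 ± 111 and 1331 ± 95.0 CPM and overlapped.

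The extended ERR element was found in the promoter windows of Sdhd, a succinate dehydrogenase subunit, in the cycle list and of Atp5g3, a ring subunit of ATP synthase, in the respiratory list. Among the 19 and 59 genes of these lists with a window these were the only matches, and the other 6 lists had none. The half-site was in 2 of the 19 cycle genes (10.5%) and 7 of the 59 respiratory genes (11.9%), beside 5.38% of all genes with a window. Sdhd and Atp5g3 are counted again here, because the half-site lies within the element. In the other 6 lists the half-site was in 0.0% (PPARα targets) to 11.8% (striated muscle energy, 2 of 17 genes). The element is shown in capitals on the strand of the gene, where its reverse complement appears. The stretches are chr9:50603800-50603823 and chr2:73911345-73911403, both minus strand, GRCm38.p6.
Sdhd: ggttgtagagTGACCTTGAgccct
Atp5g3: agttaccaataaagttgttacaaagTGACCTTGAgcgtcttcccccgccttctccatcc
The element began 36 bases after the annotated start in Sdhd and 52 bases before it in Atp5g3. Both genes were named for this match, after their values were seen. Sdhd was at 198 ± 30.6 CPM in wild-type and 176 ± 17.9 CPM in Isl1-/- embryos (SD, n = 4 each), with overlapping groups and an edgeR FDR of 0.462. Atp5g3 was at 167 ± 8.14 and 142 ± 15.9 CPM, without overlap, a log2 fold change of -0.24 (SE 0.08, edgeR FDR 0.182).

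Striated muscle energy genes had a median log2 fold change of -0.20 over 16 genes. At an unadjusted edgeR p under 0.05, 0 were higher and 7 lower (43.75%, beside 10.1% of all genes). With DESeq2 3 passed (beside 699 of all 14075 genes), with limma 1 and with edgeR 0. Without wild-type embryo 3, 4 passed (beside 490 of all 14179 genes), namely Cox6a2, Pgam2, Pygm and Idh3a. Cox6a2, the heart form of a cytochrome oxidase subunit, was at 2.42, 1.995, 0.379 and 2.59 CPM in the wild-type group (embryos 1 to 4) and at 0.732 to 1.01 CPM in Isl1-/- embryos. Wild-type embryo 3 was the lowest of all 8, which made the groups overlap, at a log2 fold change of -1.11 (SE 0.47, edgeR FDR 0.263). Without that embryo it was -1.44 with an edgeR FDR of 0.0128. Ckm, the muscle creatine kinase, had 1 to 5 reads in wild-type and 1 to 4 reads in Isl1-/- embryos and was too rare to be fitted.

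**Figure D4:**
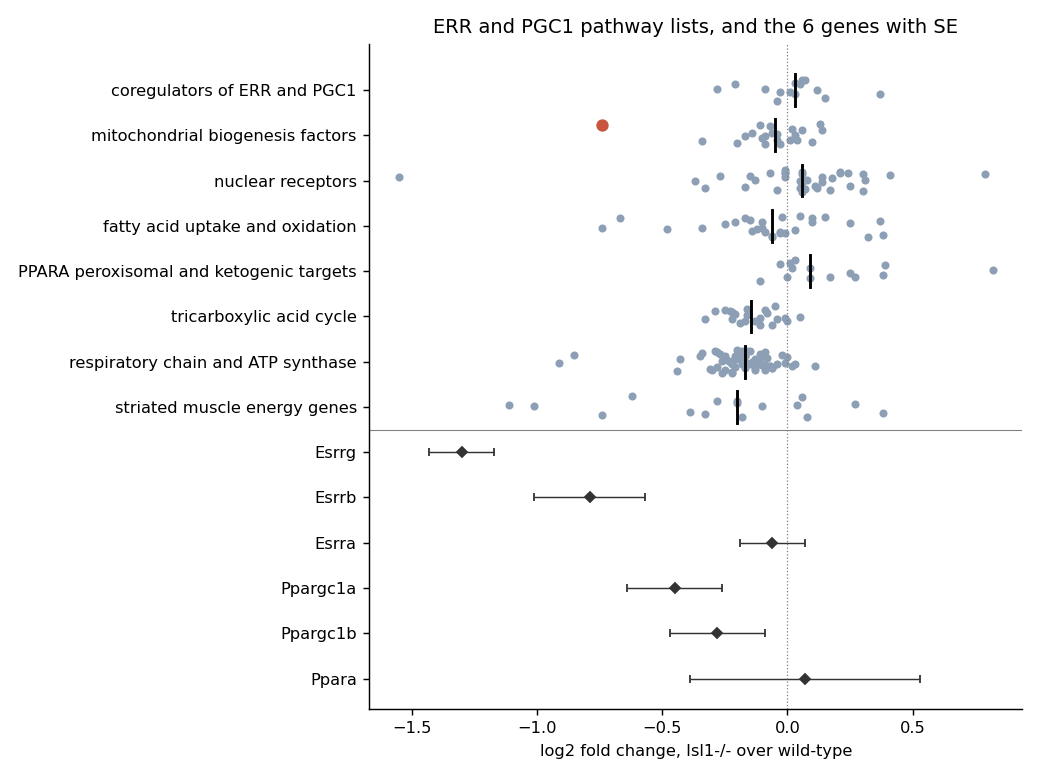
Log2 fold changes of Isl1-/- over wild-type embryos (horizontal axis) for the fitted genes of the 8 pathway lists, each point 1 gene and each black bar the list median, and below them the 6 genes as diamonds with SE. The red point is Prkaa2 (-0.74), the gene past an FDR of 0.05, and the respiratory chain is shifted a little below 0 (median -0.17) while Esrrg lies at -1.30.

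Markers of other cell types that the dissection could hold were examined beside these results. Endothelial markers were at 339 to 430 CPM in sum in wild-type and 265 to 384 CPM in Isl1-/- embryos. Of their log2 fold changes 6 of 8 were below 0, with a median of -0.12. Primitive erythroid markers were at 370 to 2367 CPM and 1258 to 3129 CPM, with 8 of 8 log2 fold changes above 0 and a median of 0.49. Yolk sac endoderm markers were at 515 to 4502 CPM and 406 to 6533 CPM, with 8 of 8 above 0 and a median of 0.42. Foregut endoderm markers (586 to 859 CPM and 573 to 897 CPM) and neural markers (381 to 437 CPM and 382 to 505 CPM) overlapped too. Their medians were 0.06 and 0.08, with 7 of 9 and 6 of 8 above 0. In these 5 lists 0 genes passed with edgeR, DESeq2 or limma on all embryos, and 1 endothelial gene passed with edgeR without wild-type embryo 3. At an unadjusted edgeR p under 0.05, 1 endothelial gene was lower, and no marker was at 0 in all embryos. Their part in the results above was not tested.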

How the data were processed

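RNA of single embryos was sequenced. The authors mapped reads to mm9 with STAR and counted reads over exons of RefSeq transcripts on both strands with HOMER, and the deposited counts were not normalized. RPKM, also deposited, had been computed by the authors in edgeR, and recomputation gave differences of at most 0.000492. Versions of these tools were not given in the sources used here. The deposited fold changes and p-values of the authors' DESeq2 comparison were not used, and the deposited transcript lengths served for RPKM.

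The 31507 transcripts were reduced to 1 for each of 20701 symbols, the one with the most reads, and ties went to the first identifier (Ppara). Counts were filtered with filterByExpr, scaled by TMM and fitted with genotype alone in edgeR 4.0.16 (R 4.3.3) by the two-sided quasi-likelihood test, with Benjamini-Hochberg adjustment (FDR) over 14075 genes at a threshold of 0.05. DESeq2 1.42.0 and limma 3.58.1 were alternatives. P-values and SEs of fold changes rest on the spread between embryos, counting error included. The counting errors given, at 18916452 to 26153039 reads per library, cover the sampling of reads only, since reads carried no molecular identifiers. On simulated counts 39 of 44 genes with a log2 change of -1 and 47 of 47 with -2 passed, as did 6 of 13774 unchanged genes. These counts were drawn independently for each gene with the trended dispersion. Genes with more spread, or an embryo apart from its group, were not represented. Groups came from the sample titles.

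The 6 genes, lists, motifs and rules were chosen with earlier results of these data known. Genes named were the 6, Isl1, 19 genes set by name (1 of them is not reported here), pathway genes past the threshold (at most 6 per list) and the 5 nearest in profile to Esrrg. Nr4a1, Sdhd, Atp5g3, Trmt112, Ttn, Nppa, Myh7, Pgam2 and Pygm were named outside this rule, after their values were seen. Positions came from GENCODE vM1 on mm9. Python 3.11.15, pandas 2.3.3 and matplotlib 3.10.9 were used.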

Additional observations from a re-analysis of the deposited data

Results flagged for a closer look

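Among the 12 groups of 4 embryos formed by the 6 genes and both genotypes, 1 held an embryo far from the others by Dixon's criterion. In wild-type embryo 4, Ppargc1b was at 2.81 CPM, while wild-type embryos 1 to 3 were at 3.26 to 3.29 CPM. Chance gives such a result in about 1 of 20 groups, and the embryo had 74 reads of this gene, as many as wild-type embryo 2. The coefficient of variation of the wild-type group, 7.31%, was below its counting error of 11.5%.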

How the results depend on the processing

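Counts of genes past an FDR of 0.05 depended on the tool and on single embryos. There were 137 with edgeR, 699 with DESeq2 and 76 with the replicate block, and 70 to 490 when 1 embryo was left out, with 490 without wild-type embryo 3 and 70 without Isl1-/- embryo 4. The count in the pathway lists, 1, became 10 with DESeq2, 2 with limma on log2(RPKM + 1), 0 with Y-linked expression as a covariate and 0 to 9 with 1 embryo left out, and stayed at 1 with the replicate block. Of the 16 cardiomyocyte markers 12 passed, and in alternatives chosen after seeing the data 5 passed with the replicate block, 7 with limma and 14 with DESeq2. Prkaa2 had an edgeR FDR of 0.0557 with the Y-linked covariate. Deviations of same-numbered embryos correlated at 0.0906 to 0.497, and 2 of 8 embryos correlated best with their own number. With 4 embryos per genotype this cannot decide whether the numbers pair the samples. Esrrg was at -1.30 with the replicate block, -0.70 with limma, where the added 1 compresses low values (Esrrb -0.12, Ppargc1a -0.15), and -1.37 to -1.21 with 1 embryo left out. Esrrg per cardiomyocyte marker was -0.44 to -0.13 with 1 embryo left out. With the Y-linked covariate Ppargc1b was at -0.12 and Ppargc1a at -0.65. Signs turned for genes near 0, with the Y-linked covariate for Ppara (-0.43), Esrra (0.04), Nrip1 (-0.01), Perm1 (-0.12) and Acadm (0.05) and with limma for Nrf1 (0.02). With 1 embryo left out Ppara ranged from -0.30 to 0.37, Esrra from -0.16 to 0.01, Perm1 from -0.03 to 0.16, Rxra from -0.01 to 0.16, Nr2f2 from -0.09 to 0.19 and Acadm from -0.20 to 0.00. The cause of these changes was not tested. Few reads limit Ppara, with 5 to 19 per embryo, and its spread between Isl1-/- embryos exceeded counting error as well.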
